A study of Homo sapiens with 4 samples.

Results

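The genes described here encode the classical guidance cues and their receptors, and also the NAV navigators, which are cytoplasmic and are neither. The cues and receptors are ephrins and Eph receptors, semaphorins with plexins and neuropilins, netrins with UNC5 receptors, SLITs with ROBO receptors and FLRT proteins. All genes of the set were chosen by symbol, and 74 of the 34484 gene symbols in the files matched. Of these, 49 had 40 or more reads summed over the 4 libraries, and the 13 that passed the test are described in full. RNA was sequenced from A549, a long-established line from a human lung adenocarcinoma, after 3 h with 100 nM dexamethasone (dex) or with 0.02% ethanol as vehicle (etoh), in 2 libraries per group. Dexamethasone is a synthetic agonist of the glucocorticoid receptor, a nuclear receptor that acts as a transcription factor. The labels give no genetic change in either group, and whether libraries within a group are separate cultures is not stated. Whether the dex samples also received ethanol is not stated either.

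Guidance cues were named for steering growing axons, but the same ligands and receptors act between epithelial and endothelial cells, where they set repulsion, adhesion and cell shape. Ephrins are membrane-bound ligands of the Eph receptor tyrosine kinases. Secreted class 3 semaphorins mostly signal through a neuropilin that binds the ligand and a plexin that passes the signal to small GTPases. Netrins bind UNC5 receptors and DCC, FLRT proteins are membrane ligands of UNC5 receptors and latrophilins, and SLITs bind ROBO receptors. The NAV proteins are cytoplasmic and bind microtubules.

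The libraries held 9764159 to 11887526 aligned reads. The hormone response was present: FKBP5, the co-chaperone of the glucocorticoid receptor, stood at 232 and 229 reads per 1000000 aligned reads (CPM) in dex and at 22.1 and 22.6 CPM in etoh. Of 12 epithelial and A549 markers, ALDH1A1, AKR1B10, NQO1, AKR1C1, KRT8 and KRT18 were abundant. KRT8 was at 3805 and 3167 CPM in dex and 1660 and 1795 CPM in etoh. KRT18 was at 3482 and 3061 CPM in dex and 1854 and 2300 CPM in etoh. The epithelial markers CDH1, KRT19 and EPCAM were much lower. In dex they had 37.3 and 35.6, 15.3 and 14.5, and 8.34 and 8.53 CPM. In etoh they had 32.6 and 34.0, 14.65 and 14.05, and 8.5 and 11.3 CPM. The lung lineage markers NKX2-1, SFTPC and SFTPB had 2, 1 and 10 reads in all. Of 16 markers of other cell types found in the files, 11 had fewer than 40 reads, and CD3E, VWF and COL1A2 had 0. Their summed level was 32.1 and 33.1 CPM in dex and 20.5 and 29.3 CPM in etoh, most of it from COL1A1, and its part in the results below was not tested. In RNA from a whole culture, a change in the number of expressing cells and a change in RNA per cell cannot be told apart.

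Guidance genes changed in both directions. Of the 49 genes, 7 rose in dex (UNC5B, PLXNA2, NAV2, SEMA3F, EFNA4, PLXND1 and EPHB4) and 6 fell (NAV3, FLRT2, SEMA3A, EPHA2, SEMA4B and NTN4) in the quasi-likelihood test of edgeR, with a threshold of 0.05 on the p-value adjusted over all 14716 genes tested. That is 26.5% of the 49, beside 11.5% of all genes tested (7.12% higher and 4.34% lower) and 11.4% of tested genes with 40 or more reads (7.05% higher and 4.36% lower). The families were chosen with earlier results of these data known, so this share only describes them. The log2 fold changes of the 49 ran from -2.22 to 3.24 with a median of -0.053, beside a median of 0.0018 over all genes. The median absolute change was 0.34, beside 0.19 over all genes. In all, 16 of the 49 had both dex libraries above both etoh libraries and 19 had both below, and the corresponding shares of all tested genes were 24.6% and 28.8%.

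**Figure D1:**
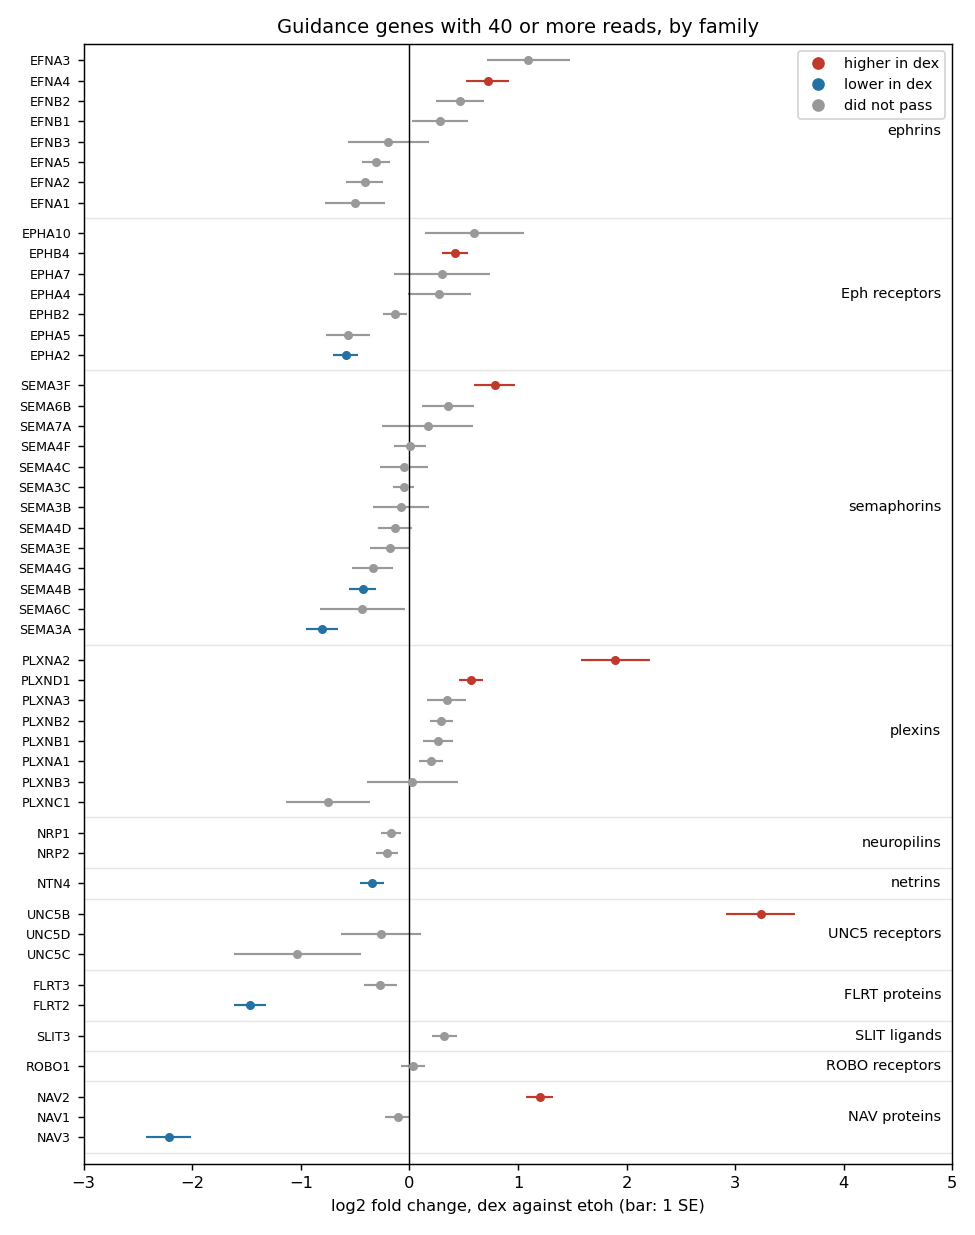
Log2 fold change of dex against etoh for the 49 guidance genes with 40 or more reads, grouped by family, with bars of 1 standard error (SE) from the edgeR test. Red points passed higher, blue points passed lower and grey points did not pass; every family with at least 7 genes tested except the ephrins and the plexins has passing genes on both sides of 0.

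Per transcript length, the secreted class 3 semaphorin SEMA3C was the most abundant guidance transcript. In reads per kilobase of transcript per 1000000 aligned reads, summed over the transcripts of a gene, its level was 155 ± 4.99 in dex and 159 ± 9.08 in etoh (SD, n = 2). Its log2 fold change was -0.053 (SE 0.096, adjusted p = 0.80). The co-receptors NRP1 and NRP2 followed with mean levels of 77.1 and 75.0 over the 4 libraries. PLXNB2, a receptor of class 4 semaphorins, came next at 42.3, ephrin EFNA5 at 30.1 and PLXND1 at 29.2. Short transcripts weigh heavily in this sum, such as PLXNB2-010 with 567 bases and 7.84% of the PLXNB2 reads. The order of PLXNB2 and EFNA5 depends on the measure. In CPM, EFNA5 was at 125 and 120 in dex and 182 and 126 in etoh. PLXNB2 was at 127 and 118 CPM in dex and 95.2 and 108 CPM in etoh. Of the genes that passed the test, only PLXND1, NTN4, EPHA2, SEMA4B and EPHB4 had a mean level above 10, while UNC5B, at 0.726, and PLXNA2, at 0.325, were among the least abundant of the 49.

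**Figure D2:**
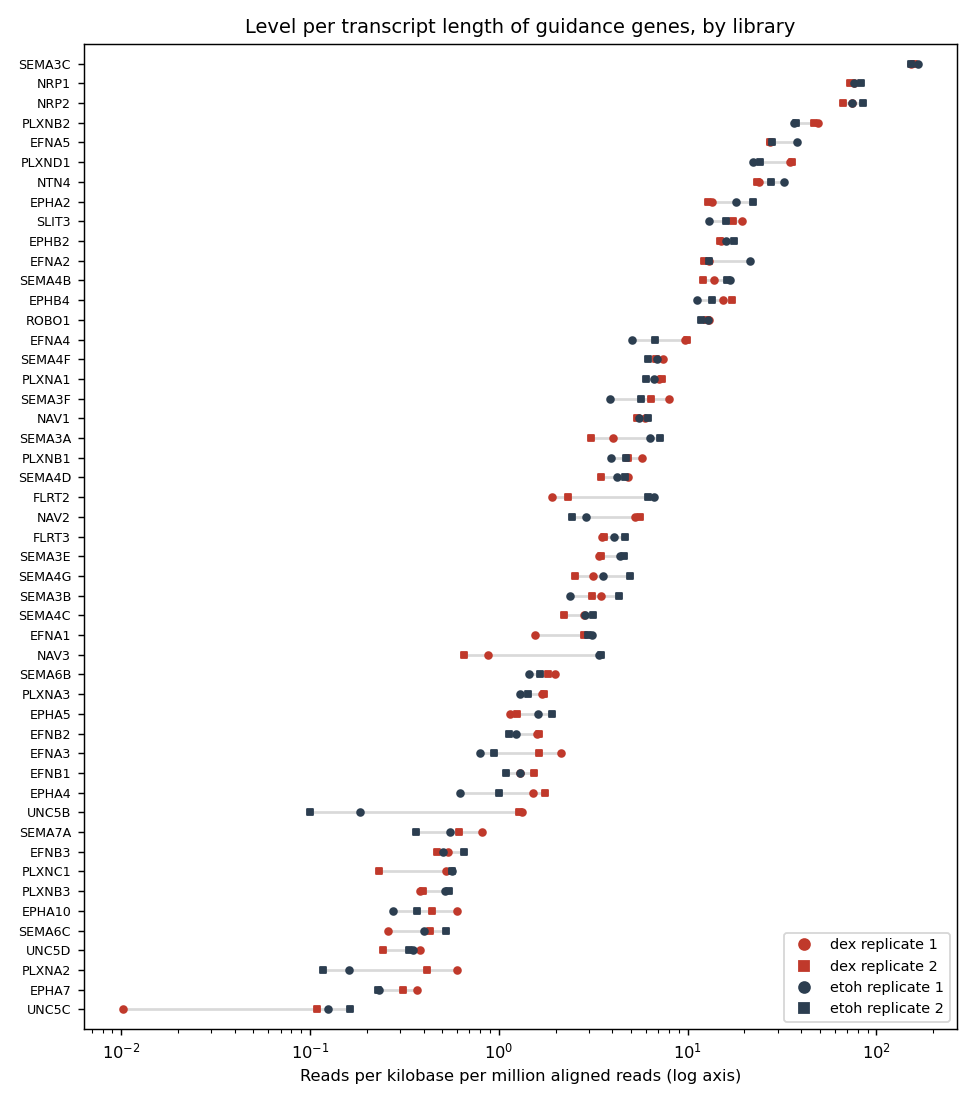
Level of each of the 49 guidance genes in each library, in reads per kilobase of transcript per 1000000 aligned reads on a log axis, ordered by the mean over 4 libraries. The level is summed over the transcripts of a gene. SEMA3C is at the top at a mean of 157 and UNC5C at the bottom at 0.102; the red and dark points of UNC5B, PLXNA2, NAV3 and FLRT2 are separated by wide gaps.

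The largest change was in UNC5B, a dependence receptor that binds netrins and repels cells from them. UNC5B had 87 and 95 reads in dex and 12 and 8 in etoh, or 8.85 and 8.53 CPM against 1.23 and 0.673 CPM. Both dex libraries were thus far above both etoh libraries, and the vehicle level rested on few reads. The log2 fold change was 3.24 (SE 0.31, adjusted p = 1.0e-07), and it lay between 2.81 and 3.70 with each library left out in turn. UNC5B lies on chromosome 10 from 71212570 to 71302864 (GRCh38, as are all positions below). Its 2 transcripts shared the reads about evenly, with 103 reads for UNC5B-002 and 99 for UNC5B-001. Their changes were 2.95 (SE 0.37) and 3.52 (SE 0.43). The aligner placed the reads that these transcripts share, so the 2 values are no separate support. The other UNC5 receptors were scarce: UNC5C and UNC5D did not pass, and UNC5A did not enter the test. UNC5D had 86 reads in all and a log2 fold change of -0.26 (SE 0.37). UNC5C had 1 and 12 reads in dex and 12 and 16 in etoh, so the dex libraries differed widely, and its value of -1.03 (SE 0.58) did not pass. Without dex replicate 2, the change of UNC5C was -3.50 and passed. UNC5A had 13 reads in all.

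Of the netrins, which are secreted and related to laminins, only NTN4 was well expressed. NTN4 stood at 65.7 and 66.7 CPM in dex and at 90.6 and 80.2 CPM in etoh, so that both dex libraries were lower. Its log2 fold change was -0.34 (SE 0.11, adjusted p = 0.045). This call was close to the threshold: it was lost without dex replicate 1, without dex replicate 2 and without etoh replicate 1 (-0.34, -0.35 and -0.24), and with DESeq2. It was also lost with the replicate number as a block (-0.34, adjusted p = 0.10) and when only its most-read transcript was counted (-0.36). NTN1 had 12 reads, NTN5 had 2 and NTN3 had 0. DCC, the other main netrin receptor, did not enter the test.

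FLRT2, a leucine-rich repeat membrane protein that acts both in adhesion and as a ligand of UNC5 receptors, fell. Its level was 11.8 and 15.0 CPM in dex and 39.6 and 36.2 CPM in etoh. The groups were well separated, with a log2 fold change of -1.47 (SE 0.15, adjusted p = 1.7e-07) and a range of -1.66 to -1.32 with each library left out. FLRT2-001 carried 853 reads and FLRT2-002 carried 247, and they fell by 1.38 (SE 0.16) and 1.84 (SE 0.23) on the log2 scale. Reads shared by these transcripts were placed by the aligner, so their falls are no separate support. FLRT3, which shares this domain structure, was at 15.5 and 15.8 CPM in dex and 17.7 and 20.4 CPM in etoh. FLRT3 did not pass, at -0.27 (SE 0.15), although its libraries did not overlap. FLRT1 had 22 reads.

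Among semaphorin receptors, PLXNA2 and PLXND1 rose. Of 8 plexins with 40 or more reads, these 2 passed higher and none lower, beside 7.12% and 4.34% of all genes tested. In 6 of the 8 both dex libraries were above both etoh libraries, beside 24.6% of all genes. PLXNA2, a co-receptor for class 3 semaphorins and a receptor of class 6 ones, had 68 and 53 reads in dex and 18 and 16 in etoh, or 6.92 and 4.76 CPM against 1.84 and 1.35 CPM. The groups did not overlap, and the log2 fold change was 1.90 (SE 0.32, adjusted p = 1.8e-04). PLXND1, which binds SEMA3E directly, was far more abundant. It was at 117 and 114 CPM in dex and 72.0 and 85.5 CPM in etoh, a log2 fold change of 0.57 (SE 0.11, adjusted p = 7.8e-04). The 3 PLXND1 transcripts with the most reads had changes of 0.51 to 0.59. They share sequence and the aligner placed the shared reads, so these values are no separate support. PLXNB2 had 127 and 118 CPM in dex and 95.2 and 108 CPM in etoh, with a change of 0.29 (SE 0.10, adjusted p = 0.076) that did not pass. The remaining plexins, PLXNA1, PLXNA3, PLXNB1, PLXNB3 and PLXNC1, had values from -0.75 (PLXNC1, 75 reads) to 0.34 (PLXNA3), and none of them passed.

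The sequences around the starts of PLXNA2 and FLRT2 are shown because these genes rose and fell the most among the passing genes whose reads came wholly from transcripts starting within 250 bases of a start in the RefSeq promoter table (GRCh38.p14). That table gave promoters for 42 of the 49 genes and none for UNC5B or SEMA3A. PLXNA2 is at chr1:208244335-208244634 on the minus strand and FLRT2 at chr14:85529894-85530193 on the plus strand. Each runs 5′ to 3′ from 250 bases before the start to 50 bases after it, and capitals mark the 50 transcribed bases.
PLXNA2: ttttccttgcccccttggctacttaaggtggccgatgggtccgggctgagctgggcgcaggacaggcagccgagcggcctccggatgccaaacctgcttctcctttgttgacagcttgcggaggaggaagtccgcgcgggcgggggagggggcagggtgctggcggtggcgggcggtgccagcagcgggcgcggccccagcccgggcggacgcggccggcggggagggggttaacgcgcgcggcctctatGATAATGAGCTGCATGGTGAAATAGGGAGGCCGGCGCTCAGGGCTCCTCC
FLRT2: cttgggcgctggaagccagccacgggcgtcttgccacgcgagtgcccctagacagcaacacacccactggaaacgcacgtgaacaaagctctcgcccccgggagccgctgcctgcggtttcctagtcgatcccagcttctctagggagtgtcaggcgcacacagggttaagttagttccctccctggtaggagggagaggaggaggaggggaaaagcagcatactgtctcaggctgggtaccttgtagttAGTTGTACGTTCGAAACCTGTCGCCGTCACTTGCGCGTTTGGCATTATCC

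Promoters were searched on both strands for 3 motifs: the full palindromic site of the glucocorticoid receptor, AGAACA, a shorter element of that site, and TGACTCA, the AP-1 site. The PLXNA2 and FLRT2 windows held none of the 3. Of the 69 promoters of the 42 genes, 1 held the full site, against 0.39% of all 35116 promoters in the table. None held AGAACA or TGACTCA, which were found in 14.8% and 4.95% of all promoters. The median GC content was 65.7% in the 69 promoters and 58.7% in all. The 1 full site was at an upstream start of EPHA4, at chr2:221574153-221574452 on the minus strand, with capitals marking the site.
EPHA4: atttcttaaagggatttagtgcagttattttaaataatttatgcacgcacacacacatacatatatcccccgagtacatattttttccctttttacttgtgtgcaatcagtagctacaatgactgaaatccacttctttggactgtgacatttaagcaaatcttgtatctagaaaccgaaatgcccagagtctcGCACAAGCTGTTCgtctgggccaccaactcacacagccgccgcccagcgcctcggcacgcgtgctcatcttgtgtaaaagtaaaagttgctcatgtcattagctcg
Transcripts starting near this window carried 11.5% of the EPHA4 reads, and those starting near a second, downstream promoter carried 76.4%. EPHA4 itself did not pass: it had 38 and 41 reads in dex and 24 and 45 in etoh, and its log2 fold change was 0.27 (SE 0.29). Its groups overlapped.

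Of 13 semaphorins with 40 or more reads, 1 rose and 2 fell. These are 7.69% and 15.4%, beside 7.12% and 4.34% of all genes tested. SEMA3A, a secreted repellent that binds NRP1, was at 16.4 and 14.005 CPM in dex and at 26.9 and 26.8 CPM in etoh. Its vehicle libraries were nearly equal and both dex libraries lay below them, with a log2 fold change of -0.80 (SE 0.15, adjusted p = 5.5e-04). SEMA3F, a secreted semaphorin that binds NRP2, went the other way, with 17.0 and 13.4 CPM in dex and 7.89 and 9.84 CPM in etoh. Its log2 fold change was 0.79 (SE 0.19, adjusted p = 0.0063), and without dex replicate 1 it was 0.60 and did not pass. The antisense gene of SEMA3F in the reference, listed in the files as RP11-493K19.3, had 42 reads and a change of -0.068. SEMA4B, a membrane-bound semaphorin, was at 31.0 and 27.6 CPM in dex and 41.2 and 39.0 CPM in etoh (-0.43, SE 0.13, adjusted p = 0.027). SEMA4B did not pass without dex replicate 2 (-0.34), without etoh replicate 1 (-0.38), with DESeq2, or when only its most-read transcript was counted (-0.41).

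Of the neighbours of SEMA3A on chromosome 7, SEMA3C and SEMA3E did not pass and SEMA3D did not enter the test. All 4 genes there are on the minus strand: SEMA3C spans 80742538 to 80922359, SEMA3E 83363238 to 83649113, SEMA3A 83955777 to 84492724 and SEMA3D 84995553 to 85186855. SEMA3E, the ligand of PLXND1, stood at 9.87 and 9.25 CPM in dex and 11.4 and 10.6 CPM in etoh, a change of -0.18 (SE 0.18), and SEMA3D had 6 reads. SEMA3F shares chromosome 3 with SEMA3B, which was at -0.080 (SE 0.26) with overlapping groups. SEMA3B had 41 reads in etoh replicate 1 and 95 in etoh replicate 2, so it was poorly determined. The other semaphorins with 40 or more reads that did not pass were SEMA4C, SEMA4D, SEMA4F, SEMA4G, SEMA6B, SEMA6C and SEMA7A, with changes between -0.44 and 0.36.

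The neuropilins, the shared co-receptors of the class 3 semaphorins, were the most abundant receptors and moved little. NRP1 was at 280 and 284 CPM in dex and at 315 and 331 CPM in etoh (-0.17, SE 0.094, adjusted p = 0.28). NRP2 was at 274 and 247 CPM in dex and at 295 and 316 CPM in etoh (-0.21, SE 0.097, adjusted p = 0.20). In both genes the dex libraries were below the etoh libraries, and neither difference passed.

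**Figure D3:**
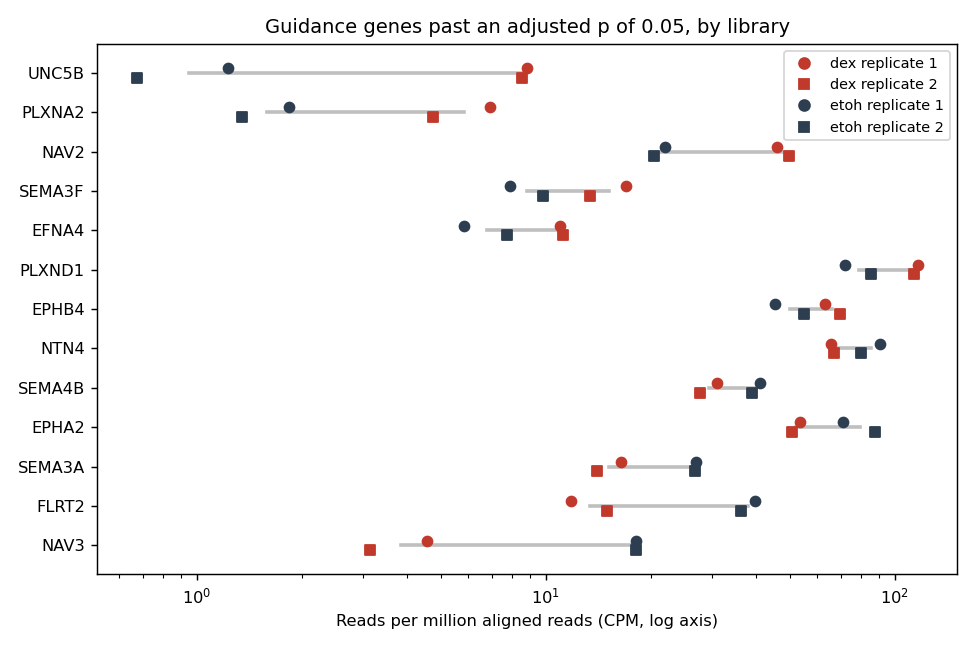
CPM of the 13 guidance genes that passed the test, in each of the 4 libraries on a log axis, ordered by fold change; grey lines join the group means. Dex (red) and etoh (dark) points do not overlap for any of the 13 genes, and the gap is widest for UNC5B, at 8.53 CPM or more in dex and 1.23 CPM or less in etoh. The 13 genes were chosen by the test on these same libraries, so this separation is no further support. Groups did not overlap in 53.4% of all tested genes.

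Of the Eph receptors, 7 of 14 had 40 or more reads, and the most abundant ones divided. EPHA2, a receptor for A-type ephrins that is prominent in epithelial tumour cells, was at 53.5 and 50.8 CPM in dex and 71.2 and 87.8 CPM in etoh. It fell by 0.59 on the log2 scale (SE 0.12, adjusted p = 0.0012) and passed without each library in turn, at -0.72 to -0.45. EPHB4, the receptor of EFNB2, rose from 45.4 and 54.9 CPM in etoh to 62.9 and 69.5 CPM in dex. Its log2 fold change was 0.42 (SE 0.12, adjusted p = 0.020), but it was 0.35 without dex replicate 2 and 0.30 without etoh replicate 1, and passed in neither, nor with DESeq2. EPHB4 shares exon sequence on the opposite strand with SLC12A9, which had 306 reads and a change of -0.019. EPHB2, a receptor for B-type ephrins of similar abundance, did not pass at -0.13 (SE 0.11), with 58.1 and 55.7 CPM in dex and 60.5 and 66.1 CPM in etoh. EPHA5 was at 6.0 and 6.37 CPM in dex and 8.91 and 9.67 CPM in etoh, and its change of -0.56 (SE 0.20, adjusted p = 0.080) did not pass. EPHA10, EPHA7 and EPHA4, all scarce, were at 0.60, 0.30 and 0.27 and did not pass.

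All 8 ephrins in the files had 40 or more reads, and 1 passed, a share of 12.5% beside 11.5% of all genes tested. EFNA4, a lipid-anchored A-type ephrin, rose from 5.84 and 7.74 CPM in etoh to 11.0 and 11.2 CPM in dex (0.72, SE 0.20, adjusted p = 0.020). It did not pass without etoh replicate 1 (0.56), with DESeq2, or when only EFNA4-001, its transcript with the most reads, was counted (0.38). EFNA4, EFNA3 and EFNA1 are neighbours on chromosome 1, from 155063731 to 155134857. EFNA3 had 29 and 24 reads in dex and 11 and 15 in etoh, a change of 1.10 (SE 0.38, adjusted p = 0.068) that passed only with no filter on low counts (1.09, adjusted p = 0.042), and 16 of its reads belonged to a second gene model that shares exon sequence with EFNA4. EFNA1, a ligand of EPHA2, was at 2.54 and 4.58 CPM in dex and 5.33 and 5.05 CPM in etoh (-0.50, SE 0.28). It did not pass either and had 25 and 51 reads in dex, so its direction was poorly determined. Of the 3 neighbours, only EFNA4 passed.

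EFNA5 and EFNA2, the most abundant ephrins, depended on the vehicle libraries. EFNA5 was at 125 and 120 CPM in dex, 182 CPM in etoh replicate 1 and 126 CPM in etoh replicate 2, a change of -0.31 (SE 0.13, adjusted p = 0.15). EFNA2 was at 28.0 and 26.1 CPM in dex, 45.7 CPM in etoh replicate 1 and 27.7 CPM in etoh replicate 2 (-0.41, SE 0.17, adjusted p = 0.14). In both genes etoh replicate 1 stood above the other 3 libraries. Without etoh replicate 2 both passed, at -0.57 for EFNA5 and -0.75 for EFNA2, and without etoh replicate 1 they were at -0.0029 and 0.0014. With all 4 libraries and no filter on low counts, both also passed, at -0.31 (adjusted p = 0.050) for EFNA5 and -0.41 (adjusted p = 0.040) for EFNA2. EFNB2, a membrane-spanning ephrin and the ligand of EPHB4, was at 7.12 and 7.27 CPM in dex and 5.53 and 5.05 CPM in etoh, and its change of 0.47 (SE 0.22, adjusted p = 0.20) did not pass. EFNB1 and EFNB3 were at 0.28 (SE 0.26) and -0.19 (SE 0.37).

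In the SLIT and ROBO families, 1 ligand and 1 receptor had 40 or more reads, and neither passed. SLIT3, a secreted ligand, was at 112 and 100 CPM in dex and at 77.2 and 94.8 CPM in etoh. The groups did not overlap, and the change was 0.32 (SE 0.11, adjusted p = 0.072). It passed without dex replicate 2, at 0.40, and without etoh replicate 2, at 0.46. ROBO1, its receptor, was at 69.0 and 74.5 CPM in dex and 73.5 and 68.7 CPM in etoh, a change of 0.036 (SE 0.11) with overlapping groups. SLIT1 and SLIT2 had 2 reads each, ROBO3 had 18, ROBO4 had 2 and ROBO2 had 0.

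The 3 NAV genes, human relatives of a worm gene needed for cell migration, had 3 different outcomes. NAV3 had 45 and 35 reads in dex and 177 and 215 in etoh, or 4.58 and 3.14 CPM against 18.1 and 18.1 CPM. It fell by 2.22 on the log2 scale (SE 0.21, adjusted p = 5.5e-08), the largest decrease of the 49. NAV2 was at 46.0 and 49.6 CPM in dex and 21.9 and 20.4 CPM in etoh. It rose by 1.2 (SE 0.13, adjusted p = 3.2e-07), and neither gene had overlapping groups. NAV1 was at 48.2 and 49.8 CPM in dex and 50.6 and 56.7 CPM in etoh and did not pass (-0.11, SE 0.11). The calls of NAV2 and NAV3 held without each library in turn, at 1.13 to 1.26 and -2.51 to -1.96.

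Per transcript length, with reads per kilobase summed over all transcripts of a gene, NAV3 was above NAV2 in vehicle and below it after dexamethasone. In CPM, NAV3 was below NAV2 in all 4 libraries, with 18.1 and 18.1 against 21.9 and 20.4 in etoh. Short transcripts with few reads weigh heavily in the sum, as NAV3-203 does with 1226 bases and 7 and 5 reads in etoh. The order in vehicle was thus uncertain. In etoh the level of NAV3 was 3.41 and 3.47 reads per kilobase per 1000000 aligned reads and that of NAV2 was 2.90 and 2.45. In dex the level of NAV3 was 0.874 and 0.653 and that of NAV2 was 5.26 and 5.59. NAV1 stayed between 5.42 and 6.18 in all 4 libraries, so in dex NAV2 came close to it. NAV2 lies on chromosome 11 from 19350724 to 20121598 and NAV3 on chromosome 12 from 77324641 to 78213008. The antisense genes NAV2-AS1 and NAV2-AS2, which share exon sequence with NAV2, had 79 and 20 reads in all, beside 452 and 553 NAV2 reads in dex and 214 and 243 in etoh.

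The change in NAV2 and NAV3 was spread over their transcripts. Among 149 tested transcripts of the 49 genes, 16 rose and 11 fell in a test over all 49857 tested transcripts, of which 5.64% passed. Of these, 7 were transcripts of NAV2, with changes from 1.08 to 1.48, and 6 were transcripts of NAV3, with changes from -4.16 to -1.97. No single NAV2 transcript held more than 16.1% of the gene's reads, and no NAV3 transcript held more than 20.6%. Transcripts of one gene share most of their sequence and the aligner placed the shared reads, so these values do not say which transcript was made.

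**Figure D4:**
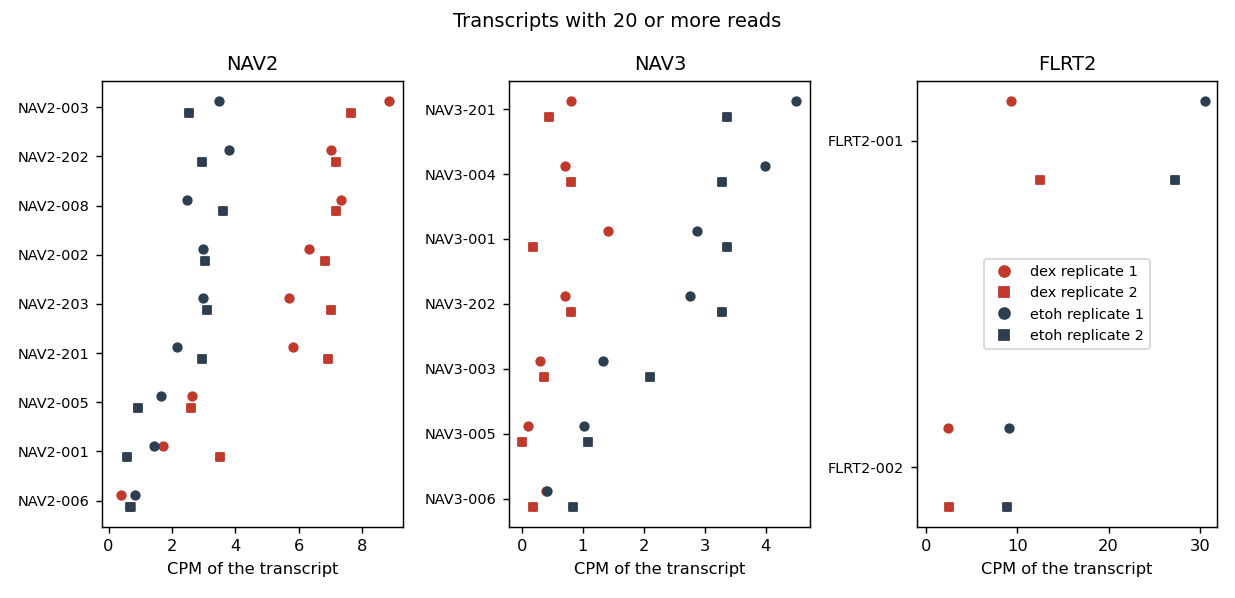
CPM of each transcript with 20 or more reads of NAV2, NAV3 and FLRT2, by library. Dex (red) lies to the right of etoh (dark) for the 7 most-read NAV2 transcripts and to the left for the 6 most-read NAV3 transcripts and for both FLRT2 transcripts.

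The remaining 25 guidance genes had fewer than 40 reads, 3 of them (EPHA8, NTN3 and ROBO2) with none in any library. A gene with no read lies below a floor of 3 reads, which is 0.252 to 0.307 CPM in a library, for counting error only. Just above the minimum were UNC5C with 41 reads and EPHA7 with 50, and just below it were EPHB6 with 31 and FLRT1 with 22. EPHB6, an Eph receptor without kinase activity, had 12 and 12 reads in dex and 4 and 3 in etoh. It was the only gene of the 25 that entered the test, at 1.81 (SE 0.58, adjusted p = 0.045), and it did not pass without any 1 of the 4 libraries, with DESeq2 or with no filter on low counts (adjusted p = 0.064).

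Genes that work with these families outside them also changed in both directions. The lists of such genes were made with earlier results of these data known, so the shares called only describe them. Of 46 listed co-receptors, other cues and their binding partners, 31 were tested, of which 4 rose and 4 fell, a share of 25.8% called, beside 11.5% of all genes tested (7.12% higher and 4.34% lower). LPHN1, a latrophilin of the family that binds FLRT proteins, rose from 5.63 and 8.08 CPM in etoh to 17.4 and 16.7 CPM in dex (1.32, SE 0.19, adjusted p = 2.6e-05). VEGFC, a lymphatic growth factor that also binds NRP2, fell from 21.9 and 23.8 CPM to 11.4 and 12.3 CPM (-0.93, SE 0.15). VEGFA, which binds NRP1, rose by 0.49 (SE 0.12), and NRCAM, a neuronal cell adhesion molecule, by 0.42 (SE 0.095). SLITRK6 fell by 1.86 (SE 0.42) and SHH, the hedgehog ligand, by 1.77 (SE 0.41), both from under 3 CPM in vehicle. VEGFA did not pass without etoh replicate 2 (0.41) or with DESeq2. SHH did not pass without dex replicate 2 (-1.51), without etoh replicate 2 (-1.67) or with DESeq2, and SLITRK6 did not pass with DESeq2.

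Of 99 listed cytoplasmic effectors, 95 were tested, of which 12 rose and 8 fell, a share of 21.1% called, beside the same 11.5% of all genes. The median log2 fold change of the tested effectors was 0.056 and that of the co-receptors and cues was -0.13, beside 0.0018 over all genes. MICAL2, of the family of enzymes that oxidise actin, rose from 36.9 and 42.3 CPM to 85.8 and 74.5 CPM (1.04, SE 0.12), and VASP, which promotes actin filament growth, rose by 1.07 (SE 0.13). The members that fell included RND1, a plexin-binding GTPase, by 1.79 (SE 0.23), the exchange factor VAV3 by 1.37 (SE 0.17) and the tyrosine kinase SRC by 0.78 (SE 0.11). Over both lists, 16 genes rose and 12 fell, or 12.7% and 9.52% of those tested, beside 7.12% and 4.34% of all genes tested. These counts depended on the processing, as did those over all genes, and both are given below.

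**Figure D5:**
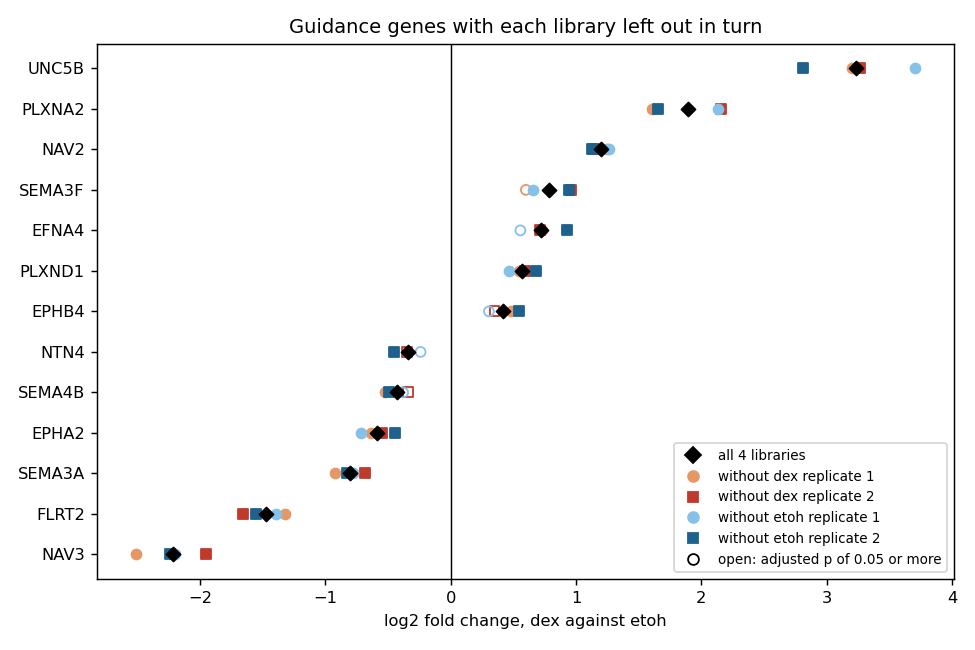
Log2 fold change of the 13 guidance genes with all 4 libraries (black diamonds) and with each library left out in turn; open symbols mark an adjusted p of 0.05 or more. No point crosses 0, which is largely set by the choice of these genes with the same libraries. Open symbols occur for SEMA3F, EFNA4, EPHB4, NTN4 and SEMA4B.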

How the data were processed

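RNA was measured by sequencing in 2 dex and 2 etoh libraries. The deposited files hold raw counts of aligned reads per transcript. The tools named, per the submitters' processing notes, are Bowtie, SAMtools, CASAVA and DESeq2, with no version; the genome build, annotation, strand and multi-read settings: not given in the sources used here. Unaligned reads (17.2% to 18.7%) were left out. Reads were summed per gene symbol. CPM is scaled to aligned totals. Levels per transcript length are reads per kilobase of each transcript, summed over all transcripts of a gene symbol.

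The test was edgeR 4.0.16 under R 4.3.3 on gene counts (filterByExpr with a minimum count of 10, TMM, quasi-likelihood test, two-sided, Benjamini-Hochberg over all genes). Every adjusted p is from this test unless an alternative is named beside it. The SE is the absolute log2 fold change over the square root of F. The biological coefficient of variation was 8.07%. Chi-square over degrees of freedom was 5.78 within dex and 7.60 within etoh, so no library was a duplicate, and p-values measure only the spread between libraries, which may be technical. Code was tested on simulated data.

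Members and lists were chosen with earlier results of these data known. By the naming rule, any member with 40 or more reads may be named, passing ones with all values, as well as the most abundant member of each family that did not pass, those with an unadjusted p under 0.05, and up to 6 passing genes of each partner list with the smallest p. A gene among these is not reported here. Members under 40 reads are given by read totals; the test values of EPHB6 were added after they were seen. Positions and exon overlaps are from GENCODE 29 (GRCh38), matched by gene identifier. Alternatives were other scaling, filter, test (DESeq2 1.42.0, limma-voom 3.58.1), transcript choice, threshold, replicate block and each library left out.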

Additional observations from a re-analysis of the deposited data

How the results depend on the processing

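Of the 13 guidance genes, UNC5B, PLXNA2, NAV2, PLXND1, NAV3, FLRT2, SEMA3A and EPHA2 passed in the same direction under every alternative run, and none of the 13 changed sign. The 13 were chosen by the test on these same libraries, so a kept sign is no independent support. SEMA3F was lost only without dex replicate 1. DESeq2, an adjusted p of 0.01 and the removal of etoh replicate 1 each left 5 higher and 4 lower, losing EFNA4, EPHB4, NTN4 and SEMA4B. Over all genes, 1048 rose and 639 fell; DESeq2 gave 652 and 386, removal of etoh replicate 1 gave 699 and 401, and an adjusted p of 0.01 gave 650 and 363. Partners and effectors, 16 higher and 12 lower, were 9 and 7 with DESeq2, 10 and 7 at an adjusted p of 0.01 and 7 lower with the most-read transcript per gene, and 9 to 19 higher and 6 to 11 lower with each library left out. Transcripts of guidance genes, 16 higher and 11 lower, were 7 and 7 with DESeq2 and 10 higher at an adjusted p of 0.01. The cause was not tested.

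Signs changed only for genes that did not pass. SEMA4F was -0.014 with library totals, -0.0010 with DESeq2, -0.049 with the most-read transcript, -0.0075 without dex replicate 2, and -0.11 to 0.12 with each library left out. With the most-read transcript, EPHA4 was -0.28, ROBO1 -0.017 and SEMA4C 0.052. With each library left out, the ranges were -0.17 to 0.30 for PLXNB3, -0.70 to 0.11 for UNC5D, -0.75 to 0.0014 for EFNA2, -0.13 to 0.016 for SEMA3C, -0.43 to 0.46 for SEMA3B, -0.16 to 0.054 for SEMA4C, -0.047 to 0.37 for SEMA7A and -0.033 to 0.098 for ROBO1.

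Libraries share only a replicate number: deviations of same-numbered libraries correlated at -0.092. With the replicate block, 7 guidance genes were higher and 5 lower, NTN4 being lost at -0.34 (adjusted p = 0.10), and partners and effectors were 16 and 9.

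Of the most-read transcripts of 11 of the 13 genes, NAV2 shared 9.56% and EFNA4 12.5% of 36-base stretches with other genes, and the others at most 1.72%. At this depth, genes under 40 reads are poorly determined.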
